A study of Mus musculus with 18 samples.

Results

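The RNA-binding proteins IGF2BP1, IGF2BP2, IGF2BP3 and LIN28B, the chromatin proteins HMGA1 and HMGA2, the imprinted noncoding RNA H19 and the growth factor IGF2 are grouped here as oncofetal genes, because they are known for being active in the fetus, shut down in most adult tissues and active again in tumours. Their 8 rows were taken by symbol from a table of 27297 gene rows and followed in single yolk sac and brain myeloid cells. Igf2bp1, Igf2bp2, Lin28b, Hmga2 and Igf2 each had a row of their own. The other 3 rows join names: Igf2bp3 shares its row with mimp3 and AK045244, H19 shares its row with AK145379, and the Hmga1 row also holds more than 1 name, so reads of the joined names cannot be told apart.

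The cells came from untreated C57BL/6J mice with a CX3CR1-GFP reporter, in which green fluorescent protein marks cells that use the Cx3cr1 locus, and were measured by MARS-seq, a plate-based single-cell method that counts transcripts at their 3′ ends by unique molecular identifiers (UMIs). All groups share this reporter background. The groups were yolk sac at embryonic day 12.5 (E12.5; 4 libraries, 671 cells) and brain at E12.5 (4 libraries, 718 cells), both sorted as CD45+ CD11b+ reporter-positive cells, and brain at E18.5, labelled E18 (6 libraries, 992 cells), and adult brain (4 libraries, 631 cells), both sorted as CD45int CD11bint reporter-positive cells. The sort gate therefore changes between E12.5 and the later stages. The age of the adult mice is not given in the sources used here.

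Library totals ranged from 269698 to 309084 UMIs in yolk sac, from 228467 to 534219 in E12.5 brain, from 143876 to 217647 in E18 brain and from 74562 to 99494 in adult brain. The median cell had 1511 UMIs in yolk sac, 1725 in E12.5 brain, 983 in E18 brain and 521 in adult brain, so the adult values are the least precise. The 9 markers of the sorted myeloid cells, among them Csf1r, Cx3cr1 and Aif1, all had UMIs in every group, and their summed level ran from 17998 to 18995 UMIs per 1000000 of the library (counts per 1000000, CPM) in yolk sac, from 23715 to 25971 in E12.5 brain, from 38234 to 43928 in E18 brain and from 48837 to 51849 in adult brain. The annotation of the wells gives the libraries of each age the same subject number and lists 9 plates of 2 libraries each and 3 sequencing batches. Nothing says that libraries are separate animals, so p-values measure the spread between libraries, which may be technical. Of the batches, 1 holds E12.5 brain replicates 1 and 2, another holds E12.5 brain replicates 3 and 4 with yolk sac replicates 1 and 2, and the last holds yolk sac replicates 3 and 4 with all E18 and adult libraries.

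IGF2BP proteins bind mRNAs, IGF2 mRNA among them, and are known to steer their stability, location and translation. LIN28B binds precursors of the let-7 microRNAs and blocks their maturation, and mature let-7 in turn represses LIN28B, HMGA2 and IGF2BP mRNAs through seed matches in their 3′ untranslated regions. H19 and Igf2 lie beside each other in an imprinted domain, with H19 made from the maternal and Igf2 from the paternal chromosome, and H19 RNA is also the precursor of miR-675.

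The let-7 microRNAs are shown because LIN28B acts on them and several of these genes carry matches to their seed. Mature microRNAs were not measured by this 3′-end method, so the sequences are background to the values. RefSeq (GRCm38.p6) lists 9 mature 5p members of the let-7 and miR-98 family in mouse, and all 9 share the seed GAGGUAG, bases 2 to 8, in capitals below. Mmu-let-7g-5p, for example, lies on the plus strand at chr9:106178846-106178867.
mmu-let-7a-5p: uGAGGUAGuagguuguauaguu
mmu-let-7d-5p: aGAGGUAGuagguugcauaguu
mmu-let-7g-5p: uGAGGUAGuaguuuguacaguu
mmu-let-7i-5p: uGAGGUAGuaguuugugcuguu
mmu-miR-98-5p: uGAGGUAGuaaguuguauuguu

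The microRNAs cut from H19 are shown beside them, with the same bases in capitals; their seeds differ from that of let-7 and from each other. Their gene lies on the minus strand, with the 5p arm at chr7:142577112-142577133.
mmu-miR-675-5p: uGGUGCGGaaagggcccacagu
mmu-miR-675-3p: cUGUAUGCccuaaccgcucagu

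The 7-base match to the let-7 seed, CTACCTC, was searched on the transcript strand in the longest annotated 3′ untranslated region of each protein-coding gene (GENCODE M21, GRCm38). Igf2bp1, Lin28b and Hmga2 held 4 matches each, Igf2bp2, Igf2bp3 and Hmga1 held 1 each, and Igf2 held 0. Of 20983 genes, 9.03% held at least 1 match and 0.153% held at least 3. The median length over all these genes was 961 bases. Among the 4933 genes whose 3′ untranslated region was 2000 to 6000 bases long, 17.98% held at least 1. Igf2bp1 (6337 bases), Igf2bp2 (1784) and Hmga1 (1183) lie outside this range. No share with at least 3 matches was computed for it. A match is a run of letters and not a shown binding site. The first match of 5 of these genes is printed in its 30-base window, with the match in capitals. It starts at base 548 after the stop codon in Igf2bp3, 1313 in Igf2bp2, 36 in Lin28b, 58 in Hmga2 and 801 in Hmga1.
Igf2bp3: gtgcatttttactcaaCTACCTCaggtatt
Igf2bp2: aacacacaaataaaagCTACCTCaggtgtt
Lin28b: cacccgggcgggaagtCTACCTCatgcaag
Hmga2: cgccgacattcaatttCTACCTCagcatca
Hmga1: ctcctctgttcacaaaCTACCTCtggacgg

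**Figure D1:**
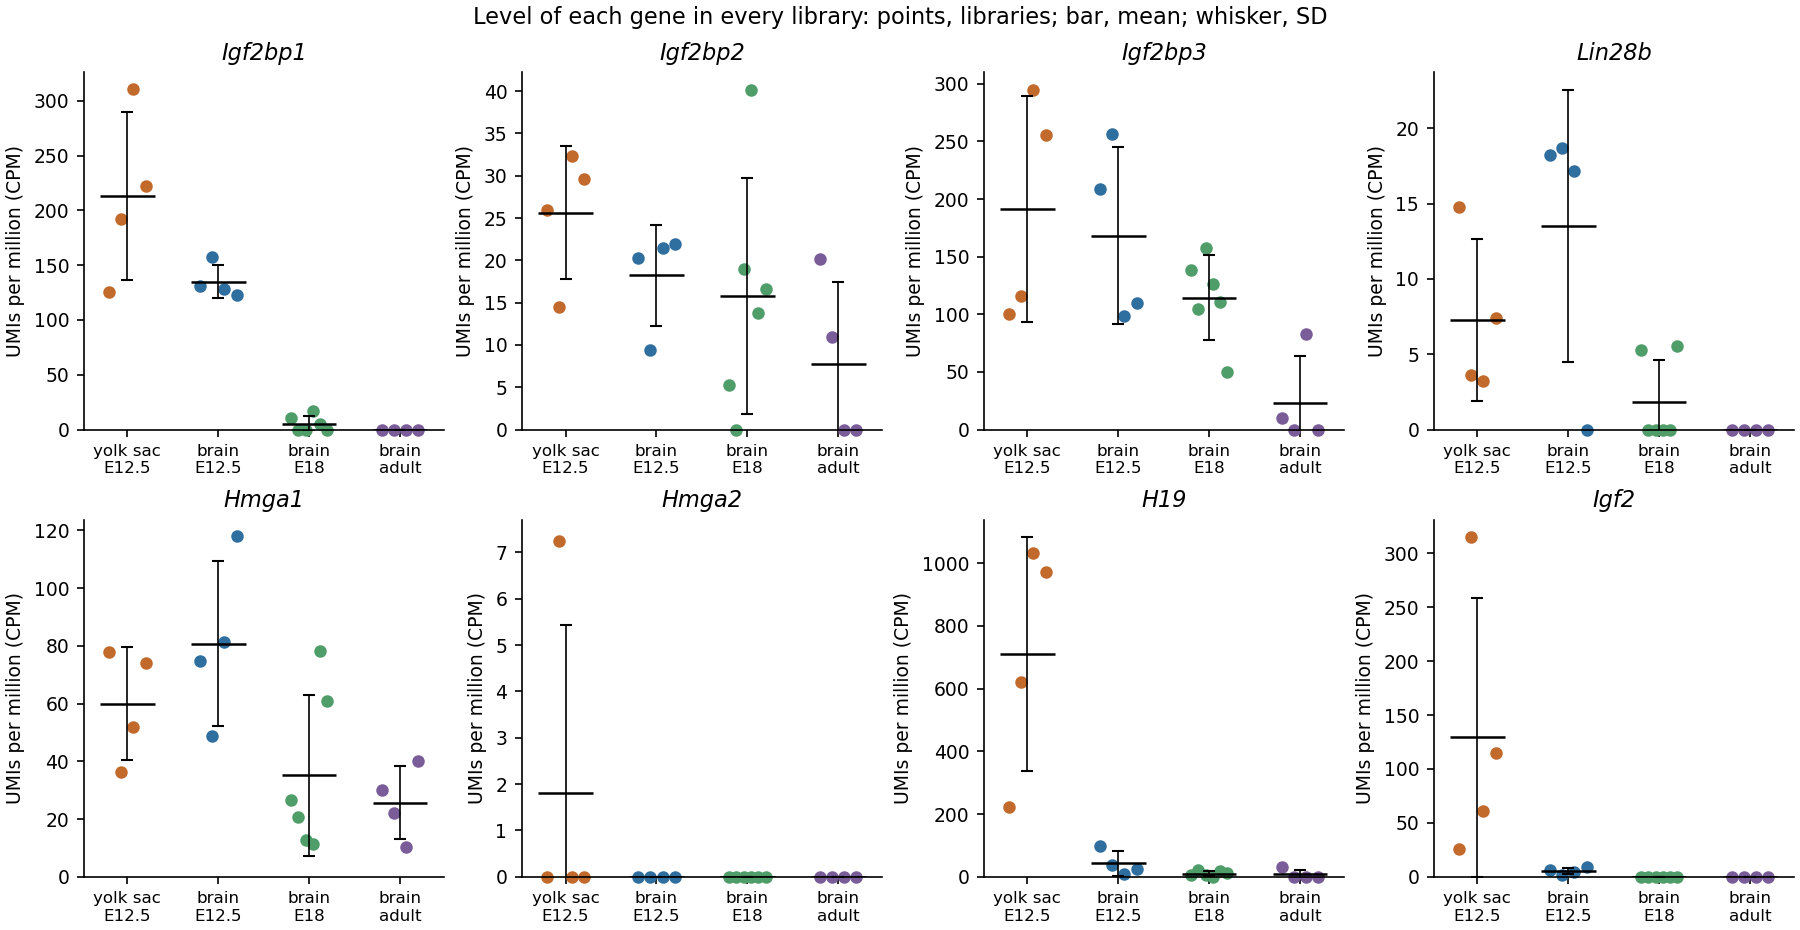
Level of each of the 8 genes in CPM (y axis, linear, its own range in each panel) in every library (points) of the 4 groups (x axis), with the mean as a bar and the SD as a whisker. Igf2bp1 lies between 123 and 311 CPM in all 8 E12.5 libraries and at 17.2 CPM or less later, while Igf2bp3 is still at 49.8 CPM or more in every E18 library.

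Igf2bp1, the family member best known as a fetal regulator of mRNA stability, was found in every library of both E12.5 tissues and was almost absent from E18 and adult brain. Its level was 126, 192, 311 and 222 CPM in yolk sac, against 131, 157, 129 and 123 CPM in E12.5 brain. The yolk sac libraries spread more widely than the brain libraries, and the groups overlapped. The mean was 213 ± 76.7 CPM in yolk sac and 135 ± 15.3 CPM in E12.5 brain (SD, n = 4 each), and the difference did not pass (log2 fold change 0.69 ± 0.28 SE, edgeR adjusted p = 0.10). It passed when yolk sac replicate 1 was left out (0.89, edgeR adjusted p = 0.0343), and it was 0.36 within the batch that holds both tissues (edgeR adjusted p = 0.406).

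In E18 brain the lowest, median and highest library had 0, 2.30 and 17.2 CPM of Igf2bp1, against 131, 157, 129 and 123 CPM in E12.5 brain. These were 6 UMIs in 4 of 992 cells, 3 of the UMIs in 1 cell, against 207 UMIs in 154 of 718 cells, and no E18 library reached the lowest E12.5 library. Igf2bp1 fell by 4.47 ± 0.45 SE on the log2 scale (edgeR adjusted p = 1.1e-09), and the call held in all 27 alternatives run for it. No batch holds both ages, so batch and age are separated only through the yolk sac libraries. With batch as a term the log2 fold change was -5.14 (edgeR adjusted p = 5.31e-09), and without E18 replicate 4, the highest E18 library, it was -5.08 (1.59e-09).

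In adult brain all 4 libraries had 0 UMIs of Igf2bp1, against 123 to 157 CPM in E12.5 brain. With 3 counts over the adult group as the floor of detection (8.30 CPM), the E12.5 brain mean, taken as exact, was 16.3 times the floor. The fall was called (edgeR adjusted p = 5.86e-08). The E18 mean of 5.40 CPM lies under this adult floor, so a difference between adult and E18 was not detectable at this depth. A UMI of Igf2bp1 was found in 23.7% of yolk sac cells, 21.4% of E12.5 brain cells, 0.403% of E18 cells and 0 of 631 adult cells, where 3 counts of the total allow a share of up to 0.475% of cells with a UMI. Such limits bound the cells with a UMI at this depth and not the cells that express the gene. With every cell thinned to 300 UMIs, the depth at which cells of all groups can be compared, the shares were 5.22%, 3.48%, 0% and 0%, and 0 of 992 E18 cells allows up to 0.302% with a UMI. The empty wells, 36 in all, held 0 UMIs of the 8 genes. Their median was 24 UMIs over all rows and their highest 80, so this 0 says little about background.

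Igf2bp3, a close paralog that binds many of the same mRNAs, was also found in both E12.5 tissues and was still present at E18. Its level was 99.9, 116, 294 and 256 CPM in yolk sac, against 208, 256, 98.5 and 109 CPM in E12.5 brain. In both tissues the higher pair came from 1 batch and the lower pair from another, and the lower pairs are those of the batch that holds both tissues. The groups overlapped (191.6 ± 98.0 CPM in yolk sac and 168 ± 76.8 CPM in E12.5 brain, SD, n = 4 each; log2 fold change 0.19 ± 0.42 SE, edgeR adjusted p = 0.845).

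In E18 brain the lowest, median and highest library had 49.8, 118 and 158 CPM of Igf2bp3, against 98.5, 109, 208 and 256 CPM in E12.5 brain. The groups overlapped, with 1 E18 library below all E12.5 brain libraries. The log2 fold change was -0.60 ± 0.41 SE (edgeR adjusted p = 0.316) and -1.26 with batch as a term (edgeR adjusted p = 0.144), and no alternative brought it past the threshold. In adult brain the libraries had 10.1, 0, 83.1 and 0 CPM, and 8 of the 9 adult UMIs came from replicate 3. Adult brain was lower than E12.5 brain without overlap (log2 fold change -2.75 ± 0.71 SE, edgeR adjusted p = 0.00499), a call made in all 27 alternatives. Without adult replicate 3 the log2 fold change was -5.29, and with batch as a term it was -3.41.

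Against E18 brain, the adult libraries overlapped with the E18 range through replicate 3 alone, and the fall in Igf2bp3 was near the threshold (log2 fold change -2.15 ± 0.74 SE, edgeR adjusted p = 0.0455). This call was lost in 10 of 27 alternatives. They were sums per plate (edgeR adjusted p = 0.142), the fit of rows with at least 10 UMIs (0.0628), and leaving out adult replicate 1, 2 or 4 (0.137, 0.114 and 0.103) or any of E18 replicates 1 to 5 (0.0563 to 0.0683). Without adult replicate 3 the log2 fold change was -4.72 (edgeR adjusted p = 0.00115). UMIs of Igf2bp3 were found in 21.3% of yolk sac cells, 26.04% of E12.5 brain cells, 10.5% of E18 cells and 1.43% of adult cells, and in 3.73%, 6.69%, 3.33% and 0.951% after thinning.

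The UMIs of both genes can also be set side by side within each library, where they share depth and batch. Igf2bp1 made up 53.98 ± 6.73% of the summed Igf2bp1 and Igf2bp3 UMIs in yolk sac (SD, n = 4) and 46.5 ± 9.58% in E12.5 brain (SD, n = 4), and 3.86 ± 4.93% in E18 brain (SD, n = 6). The 6 E18 libraries ran from 0 to 12.0% and the 4 E12.5 brain libraries from 38.0 to 56.6%, so they did not overlap. The E12.5 brain libraries went in pairs by plate and batch, with 38.7 and 38.0% in one and 56.6 and 52.8% in the other. This ratio was chosen after the levels had been seen and was not tested. UMIs of both genes were found together in 45 of 671 yolk sac cells, 65 of 718 E12.5 brain cells and 1 of 992 E18 cells, and after thinning in 0, 1 and 0 cells with 300 UMIs, too few to compare.

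**Figure D2:**
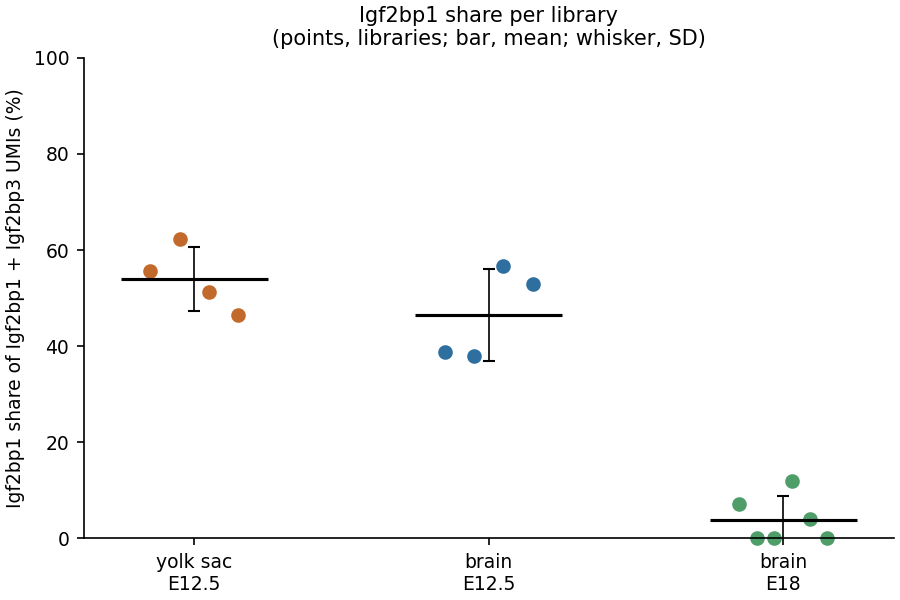
Share of Igf2bp1 among the Igf2bp1 and Igf2bp3 UMIs of a library (y axis, %) in yolk sac at E12.5, brain at E12.5 and brain at E18 (x axis), with libraries as points, the mean as a bar and the SD as a whisker. The E18 libraries lie at 12.0% or less and the E12.5 libraries of both tissues at 38.0% or more; adult brain is not drawn because 2 of its libraries had no UMI of either gene.

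Igf2bp2, the relative that is known to stay active in adult tissues, was scarce throughout, with 74 UMIs in all. Its level was 25.9, 14.5, 32.4 and 29.7 CPM in yolk sac, against 20.2, 9.36, 21.4 and 21.9 CPM in E12.5 brain. In E18 brain the lowest, median and highest library had 0, 15.2 and 40.1 CPM, and the adult libraries had 20.1, 11.0, 0 and 0 CPM. All groups overlapped, and none of the 4 comparisons passed (edgeR adjusted p from 0.352 to 0.879). The exact interval for the E18 to E12.5 brain ratio of summed counts, 0.953 (0.483 to 1.84), leaves room for a change in either direction. Over the same pair of ages the Igf2bp1 ratio was 0.0406 (0.0147 to 0.0899), with intervals that cover counting error only.

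Lin28b, the inhibitor of let-7 maturation, was near the limit of detection, with 33 UMIs in 27 cells. Its level was 14.8, 3.63, 3.24 and 7.42 CPM in yolk sac, against 18.2, 18.7, 17.1 and 0 CPM in E12.5 brain, with no call (log2 fold change -0.91 ± 0.84 SE, edgeR adjusted p = 0.652). Of the 33 UMIs, 8 lay in yolk sac, 23 in E12.5 brain, 2 in E18 brain and 0 in adult brain. The 6 E18 libraries had 0 CPM apart from replicates 1 and 6, with 5.31 and 5.53 CPM, against 0 to 18.7 CPM in E12.5 brain. The summed level in E12.5 brain was 8.21 times that in E18 brain (exact interval 2.03 to 71.8), and the fall at E18 narrowly missed the threshold (edgeR adjusted p = 0.0511), which it passed in 5 of 24 alternatives.

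The E12.5 brain mean of Lin28b, from 23 UMIs and taken as exact, was 1.63 times the adult floor of 8.30 CPM. Lin28b was called lower in adult than in E12.5 brain with edgeR (adjusted p = 0.0398). The call was lost in 11 of 24 alternatives. Among them was each one that left out an adult library (edgeR adjusted p from 0.0771 to 0.0992) or E12.5 brain replicate 1, 2 or 3 (0.0749, 0.0797 and 0.0567). The fit with batch as a term lost it too (edgeR adjusted p = 0.484). The adult and E12.5 brain libraries overlapped at 0, since E12.5 brain replicate 4 had no UMI of Lin28b.

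Hmga1, which bends DNA in growing cells, was found in all 18 libraries, and its level was lower in E18 and adult than in E12.5 brain. Its level was 77.7, 36.3, 51.8 and 74.2 CPM in yolk sac, against 74.9, 48.7, 81.4 and 118 CPM in E12.5 brain, and these ranges overlapped (log2 fold change -0.35 ± 0.39 SE, edgeR adjusted p = 0.648). In E18 brain the lowest, median and highest library had 11.5, 23.7 and 78.1 CPM. Of the E18 libraries, replicates 5 and 6 lay within the E12.5 brain range and the other 4 below it. The fall from E12.5 was called (log2 fold change -1.10 ± 0.39 SE, edgeR adjusted p = 0.0371) and was lost in 12 of 26 alternatives, including DESeq2 (adjusted p = 0.0569), sums per plate (edgeR adjusted p = 0.185) and batch as a term (0.162). It was also lost without E12.5 brain replicate 1, 3 or 4 (edgeR adjusted p = 0.0593, 0.0859 and 0.177) and without E18 replicate 1, 2, 3 or 4 (0.0879, 0.0861, 0.0985 and 0.117).

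The adult libraries had 30.2, 22.0, 10.4 and 40.2 CPM of Hmga1, all below the lowest E12.5 brain library, and the log2 fold change against E12.5 brain was -1.60 ± 0.57 SE (edgeR adjusted p = 0.0226). This call was lost in 5 of 25 alternatives: sums per plate (edgeR adjusted p = 0.0766), batch as a term (0.0531), and the fits without E12.5 brain replicate 4, adult replicate 2 and adult replicate 3 (0.0692, 0.0581 and 0.0929). Adult and E18 brain overlapped, with no call (log2 fold change -0.51 ± 0.61 SE, edgeR adjusted p = 0.612). Hmga2, the other HMGA gene and a classical let-7 target, gave 2 UMIs in 2 cells of yolk sac replicate 2 and 0 in every other library, and was not tested. None of 718 E12.5 brain cells, 992 E18 cells and 631 adult cells held a UMI of Hmga2, which by the same rule allows shares of cells with a UMI of up to 0.418%, 0.302% and 0.475%.

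H19, the maternally expressed noncoding RNA, was far higher in yolk sac than in brain of the same age. Its level was 222, 621, 1032 and 971 CPM in yolk sac, against 97.1, 37.4, 8.57 and 26.3 CPM in E12.5 brain. The lowest yolk sac library stood above the highest brain library. The mean was 712 ± 373 CPM in yolk sac and 42.3 ± 38.4 CPM in E12.5 brain (SD, n = 4 each), and the rise by 3.95 ± 0.56 SE on the log2 scale (edgeR adjusted p = 7.63e-05) was called in all 28 alternatives. Without E12.5 brain replicate 1 the log2 fold change was 4.75 (edgeR adjusted p = 2.09e-05). Within the batch that holds both tissues, yolk sac replicates 1 and 2 had 222 and 621 CPM, against 8.57 and 26.3 CPM in E12.5 brain replicates 3 and 4 (log2 fold change 4.58, edgeR adjusted p = 0.0466).

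The H19 signal of yolk sac was spread over many cells, with a few very high ones. It was found in 35.9% of yolk sac cells (241 of 671; exact 95% interval 32.3 to 39.7%) and in 6.82% of E12.5 brain cells (49 of 718; 5.09 to 8.92%), and in 15.4% and 1.53% after thinning. Of the 241 positive yolk sac cells, 113 had 1 UMI, 36 had at least 5 and 14 had at least 10, while 2 of the 49 positive brain cells had at least 5. The 10 highest yolk sac cells held 257 of its 812 UMIs, or 31.7%.

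**Figure D3:**
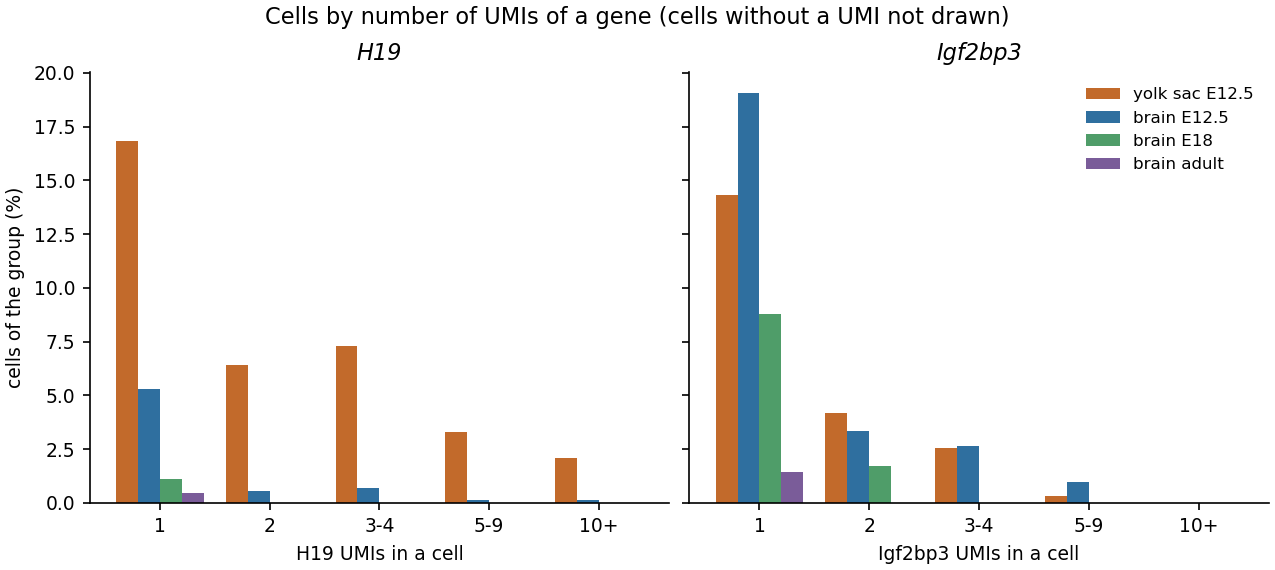
Percent of the cells of a group (y axis) that held 1, 2, 3 to 4, 5 to 9 or at least 10 UMIs (x axis) of H19 (left) and Igf2bp3 (right), by group; cells without a UMI are not drawn. H19 reaches 10 UMIs or more in 14 yolk sac cells and 1 E12.5 brain cell, while no cell of any group reaches 10 UMIs of Igf2bp3.

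Markers of other cell types were followed beside H19. The summed level of 13 visceral endoderm genes ran from 581 to 1485 CPM in yolk sac, from 127 to 436 CPM in E12.5 brain, from 431 to 902 CPM in E18 brain and from 707 to 1005 CPM in adult brain, where Trf, the transferrin gene, held all UMIs of the list. Without Trf, left out after its level had been seen, the other 12 genes ran from 115 to 327 CPM in yolk sac, against 3.74 to 8.09 CPM in E12.5 brain, with UMIs of 10 of the 12 in yolk sac (Spink3 and Foxa2 at 0). The summed level of the erythroid list, 11 rows, ran from 340 to 5273 CPM in yolk sac, against 26.2 to 219 CPM in E12.5 brain, with UMIs of all 11 in yolk sac. The mesenchyme and endothelium list ran from 40.7 to 276 CPM in yolk sac, against 21.9 to 287 CPM in E12.5 brain, the neural list from 50.8 to 104 CPM, against 473 to 586 CPM, and the granulocyte and early progenitor list from 537 to 1635 CPM, against 394 to 523 CPM. The cell with most H19, in yolk sac replicate 2, held 74 H19 UMIs and 71 Igf2 UMIs. Beside them it held 1006 erythroid, 44 visceral endoderm and 64 mesenchyme and endothelium UMIs, and 10 UMIs of the 9 myeloid markers (visceral endoderm here includes Trf). Not all of these 9 markers were used in the sort. The next highest, in replicate 3, held 53 H19 UMIs beside 51 visceral endoderm and 6 myeloid marker UMIs. The third, in replicate 4, held 22 H19 UMIs beside 47 myeloid marker UMIs, with 1 visceral endoderm and 1 erythroid UMI.

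In 15 cells, 11 of them from yolk sac, UMIs of the other cell types' lists exceeded those of the 9 myeloid markers. The 11 yolk sac cells held 141 of the 812 H19 UMIs and 76 of the 144 Igf2 UMIs. Without the 15 cells, H19 was 219, 367, 853 and 956 CPM in yolk sac, against 97.1, 37.4, 8.61 and 26.4 CPM in E12.5 brain, and stayed called (log2 fold change 3.69, edgeR adjusted p = 0.000141). Yolk sac cells with 3 myeloid marker UMIs each, which held 7 and 11 H19 UMIs, were not among the 15. This alternative, without the 15 cells, was added after the data had been seen.

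Within brain, no change of H19 with age was called. The lowest, median and highest E18 library had 0, 8.69 and 20.9 CPM, against 97.1, 37.4, 8.57 and 26.3 CPM in E12.5 brain (log2 fold change -2.13 ± 0.83 SE, edgeR adjusted p = 0.0782; 0.0216 without yolk sac replicate 1). The E12.5 brain libraries of the 2 batches lay apart, with 97.1 and 37.4 CPM in one and 8.57 and 26.3 CPM in the other, and the last pair overlaps with E18. In adult brain 3 UMIs of H19 were found, all in replicate 1 (30.2 CPM), and the summed level in E12.5 brain was 6.14 times the adult one (exact interval 2.02 to 30.4). Neither adult comparison was called (edgeR adjusted p = 0.94 against E18 and 0.157 against E12.5).

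Igf2, the growth factor next to H19, was also higher in yolk sac than in E12.5 brain. It had 25.9, 316, 61.5 and 115 CPM in yolk sac, against 6.07, 1.87, 4.28 and 8.75 CPM in E12.5 brain, without overlap. The log2 fold change was 4.65 ± 0.90 SE (edgeR adjusted p = 0.00701). The single cell described above held 71 of the 144 yolk sac UMIs, or 49.3%, and the 10 highest cells held 112, or 77.8%. The cells next in rank, with 10 and 9 Igf2 UMIs, held 3 UMIs each of the 9 myeloid markers, of 424 and 731 UMIs in all. They held 0 and 1 UMIs of the other cell types' lists, so leaving out the 15 cells does not remove them. Without the 15 cells the yolk sac libraries had 25.9, 57.4, 52.5 and 112 CPM, against 6.07, 1.87, 4.30 and 8.79 CPM in E12.5 brain (log2 fold change 3.56, edgeR adjusted p = 1.54e-05). The call was lost within the batch that holds both tissues (log2 fold change 4.64, edgeR adjusted p = 0.509) and without E12.5 brain replicate 3 (4.63, edgeR adjusted p = 0.0538), and without yolk sac replicate 2 the log2 fold change was 3.73 (edgeR adjusted p = 1.79e-05).

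E18 and adult brain had 0 UMIs of Igf2 in all libraries. The E12.5 brain mean of 5.24 CPM, from 7 UMIs, was 1.86 times the E18 floor of 2.82 CPM if that mean is taken as exact. The fall at E18 was not called (edgeR adjusted p = 0.359). Igf2 and H19 often met in the same yolk sac cells: 25 of 39 cells with Igf2 also held H19, or 64.1%, where 35.9% of all yolk sac cells did. Deeper cells give more UMIs of any gene. After thinning, 5 of 7 yolk sac cells with Igf2 also held H19, where 15.4% of all yolk sac cells did. The cells with 71, 10 and 9 Igf2 UMIs, which held 10, 3 and 3 myeloid marker UMIs, had 74, 7 and 11 H19 UMIs. The overlap of Igf2 and H19 is a description and was not tested.

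Of the 8 genes, 4 passed the expression filter of the main test, which requires enough counts in a group of libraries. Igf2bp2, Lin28b and Igf2 were tested in a second fit of all 10356 rows with at least 10 UMIs. Hmga2 was left untested. Between yolk sac and E12.5 brain, H19 of the first 4 was called, where 15.9% of 4883 rows were called and 7.04% were called higher, and Igf2 of the other 3, where 8.91% of 10356 rows were called and 4.14% higher. Between E18 and E12.5 brain, Igf2bp1 and Hmga1 were called, both lower, where 24.5% of all rows were called and 13.4% were called lower. None of the other 3 genes was called there by edgeR, where 12.9% of rows were, and 1 of them, Lin28b, had an unadjusted p under 0.05. DESeq2 called 0 but gave no adjusted p for Lin28b.

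Between adult and E18 brain, Igf2bp3 of the first 4 was called, lower, where 21.5% of rows were called and 11.2% lower. None of the other 3 was called, where 10.8% of rows were, with 0 at an unadjusted p under 0.05. DESeq2 called 0 of these 3 but gave no adjusted p for Lin28b. Between adult and E12.5 brain, Igf2bp1, Igf2bp3 and Hmga1 were called lower, where 38.6% of rows were called and 20.7% lower, and so was Lin28b of the other 3, where 22.8% were called and 14.6% lower. The 3 brain comparisons share libraries and are not independent. Of the 4 filtered genes, the libraries of both groups did not overlap for H19 between yolk sac and E12.5 brain (19.9% of all rows), for Igf2bp1 between E18 and E12.5 brain (18.7%), for none between adult and E18 brain (16.8%), and for Igf2bp1, Igf2bp3 and Hmga1 between adult and E12.5 brain (34.3%). Of Igf2bp2, Lin28b and Igf2, Igf2 alone did not overlap, between yolk sac and E12.5 brain (13.9% of the 10356 rows), between E18 and E12.5 brain (10.8%) and between adult and E12.5 brain (23.2%), and none did so between adult and E18 brain (9.77%). The E12.5 brain mean of Igf2, 5.24 CPM, lies under the adult floor of 8.30 CPM, so its non-overlap with adult brain shows no difference detectable at this depth. Its non-overlap with E18 brain rests on 3, 1, 1 and 2 UMIs in the E12.5 brain libraries, and that difference was not called (edgeR adjusted p = 0.359).

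**Figure D4:**
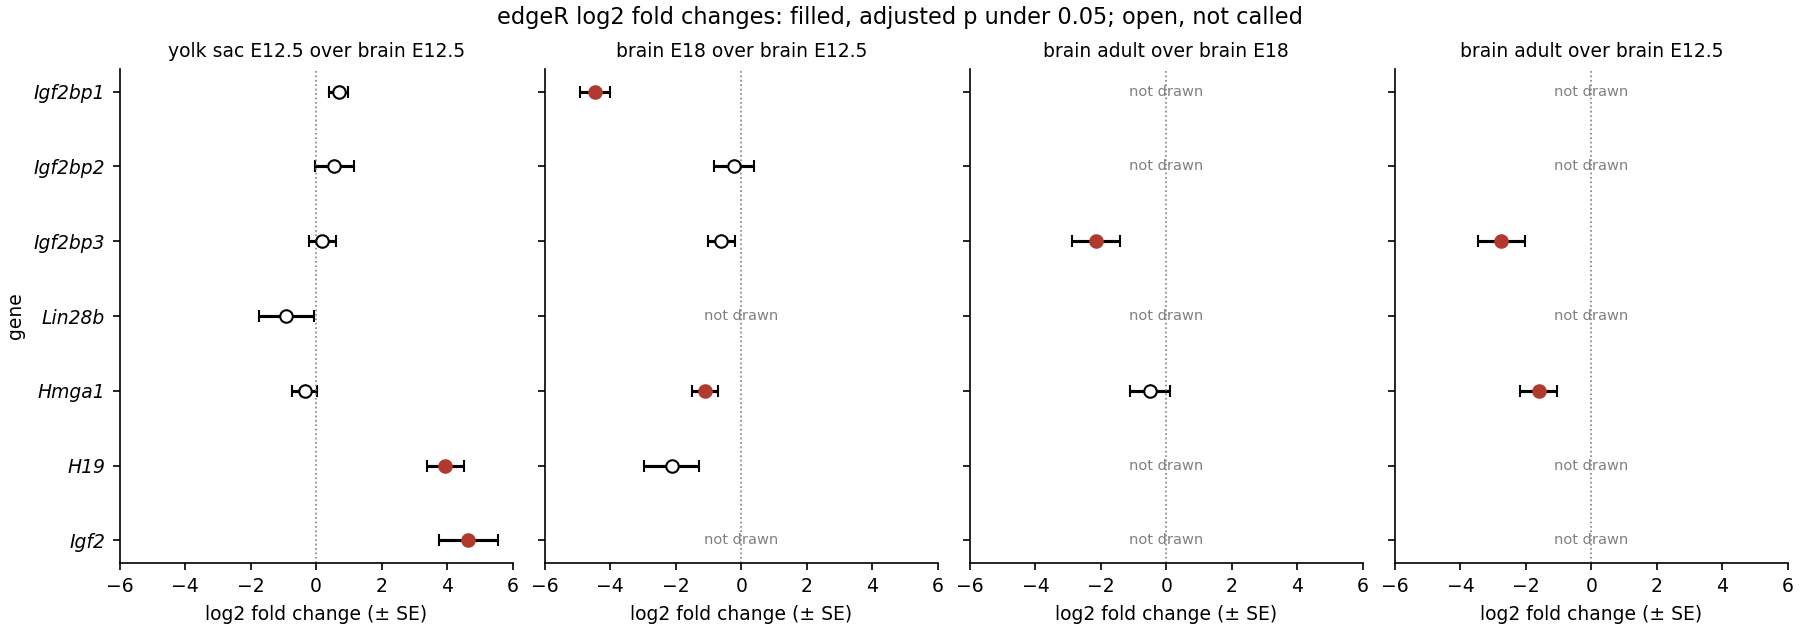
Log2 fold change (x axis, with its SE) of 7 genes (y axis) in the 4 comparisons, by edgeR; filled points have an adjusted p under 0.05. Genes with 3 UMIs or fewer in a group are marked as not drawn, because their fitted fold change depends on the prior count; H19 and Igf2 lie to the right in yolk sac and Igf2bp1 lies at -4.47 at E18.

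Cells with UMIs of several of these genes were found mainly at E12.5. At least 2 of the 8 were found in 173 yolk sac cells (25.8%), in 124 E12.5 brain cells (17.3%), in 10 E18 cells (1.01%) and in 1 adult cell (0.158%). With all cells thinned to 300 UMIs the counts were 17, 3, 0 and 1 cells. The unthinned counts also carry the lower depth per cell in E18 and adult brain.

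The genes were also set beside cell division. The summed level of 25 cell-cycle genes ran from 1927 to 2177 CPM in yolk sac, from 2511 to 2801 CPM in E12.5 brain, from 1499 to 2511 CPM in E18 brain and from 268 to 1060 CPM in adult brain. Cells with at least 2 cell-cycle UMIs after thinning were 17.7% of E12.5 brain cells and 12.6% of E18 brain cells. Igf2bp1 was found in 0 of these 125 E18 cells and in 0 of the other 867, against 2.36% of the 127 E12.5 brain cells with cell-cycle UMIs and 3.72% of the other 591. Igf2bp3 was found in 5.60% of the E18 cells with cell-cycle UMIs and in 3.00% of the others, against 7.87% and 6.43% in E12.5 brain, and its share was higher in the cells with cell-cycle UMIs in 3 of 6 E18 libraries and 3 of 4 E12.5 brain libraries.

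The genes whose levels over the 18 libraries ran most like those of a member were ranked by the root mean square (RMS) difference of centred log2(TMM-scaled CPM + 10) values, as a description. For Igf2bp1 they were Gsn, which codes for the actin-severing protein gelsolin (0.63), Crip1 (0.80) and Cnn2 (0.85), where the median row of 4227 had 2.03. Gsn averaged 209 CPM in yolk sac, 229 CPM in E12.5 brain, 23.2 CPM in E18 brain and 0 CPM in adult brain. For Igf2bp3 they were Eef1g, a translation elongation factor subunit, Sepw1 and G6pdx (0.68, 0.68 and 0.69; median 1.53), and for Hmga1 BC067010, Anapc11 and Cotl1 (0.46, 0.48 and 0.48; median 0.99). For H19 they were AI607873, Ifi27l2a and Tmem8 (0.93, 0.98 and 1.03; median 2.30). With 1 in place of 10 as pseudocount, 1, 0, 1 and 2 of these 3 genes stayed among the 3 most alike for Igf2bp1, Igf2bp3, Hmga1 and H19.

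The lists that follow were also chosen with results known. Over all 4883 rows, edgeR called 7.04% higher and 8.81% lower in yolk sac relative to E12.5 brain, 11.1% and 13.4% in E18 relative to E12.5 brain, 10.3% and 11.2% in adult relative to E18 brain, and 17.8% and 20.7% in adult relative to E12.5 brain.

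Of 16 listed ligands, receptors and binding proteins of the IGF system, the 2 that could be tested were Igf1 and Igfbp4. Igf1 codes for a growth factor that microglia are known to make, and Igfbp4 binds IGFs in the extracellular space. Both rose in yolk sac relative to E12.5 brain: Igf1 averaged 433 ± 127 CPM in yolk sac and 48.7 ± 15.2 CPM in E12.5 brain (log2 fold change 3.17, edgeR adjusted p = 1.17e-09), and Igfbp4 1037 ± 212 CPM in yolk sac and 203 ± 49.0 CPM in E12.5 brain (2.40, edgeR adjusted p = 5.16e-12; SD, n = 4 each). Both also rose at E18 relative to E12.5 brain (log2 fold change 1.01 and 0.79, edgeR adjusted p = 0.0219 and 0.00287) and fell in adult relative to E18 brain (-2.52 and -1.65, edgeR adjusted p = 0.00104 and 6.16e-06). In adult relative to E12.5 brain Igfbp4 fell (-0.86, edgeR adjusted p = 0.0131), while Igf1 did not pass (-1.51, edgeR adjusted p = 0.0514).

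Of 15 listed genes of the LIN28 and let-7 pathway, 12 had a row and 6 were tested, and edgeR called none between yolk sac and E12.5 brain (3 at an unadjusted p under 0.05, and 1 called by DESeq2), none between E18 and E12.5 brain (1, and 0 by DESeq2) and none between adult and E18 brain (0, and 0 by DESeq2). Among them Arid3a, a fetal lymphoid transcription factor and the best detected of the 6, averaged 444 ± 195 CPM in yolk sac and 247 ± 88.3 CPM in E12.5 brain (edgeR adjusted p = 0.152). Between adult and E12.5 brain Zcchc11, a uridylyl transferase that LIN28 recruits to let-7 precursors, rose to 89.5 ± 25.2 CPM in adult brain, against 42.0 ± 10.8 CPM in E12.5 brain (edgeR adjusted p = 0.0228), and Arid3a fell (log2 fold change -1.38, edgeR adjusted p = 0.0378). Zcchc6, a related enzyme, averaged 134 ± 77.3 CPM in adult brain and 89.9 ± 33.4 CPM in E12.5 brain and did not pass (edgeR adjusted p = 0.215).

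Of 14 listed let-7 targets among oncogenes and cell-cycle genes, 6 rows were tested, and 2 fell at E18 relative to E12.5 brain by edgeR and by DESeq2, where 13.4% of all rows were called lower. The median log2 fold change of the 6 was -0.44, beside -0.03 over all tested rows. Ccnd2, the cyclin D2 gene, which shares its row with CYL2, averaged 6.73 ± 8.61 CPM in E18 brain (n = 6) and 123 ± 64.8 CPM in E12.5 brain (n = 4; log2 fold change -4.08, edgeR adjusted p = 5.44e-07). Cdc34, a ubiquitin-conjugating enzyme, fell by 1.24 on the log2 scale (edgeR adjusted p = 0.00016). In adult relative to E12.5 brain edgeR called 4 of the 6 lower and DESeq2 3, where 20.7% of all rows were called lower by edgeR, among them Ccnd2 (-4.28), Cdc34 (-2.06) and Cdc25a (-1.38), with a median of -1.18, beside -0.07 over all tested rows; edgeR called none between adult and E18 brain (1 at an unadjusted p under 0.05, and 0 called by DESeq2). Between yolk sac and E12.5 brain Ccnd1 rose (1.08, edgeR adjusted p = 0.0386) and Myc fell (-0.92, edgeR adjusted p = 0.0419); of the 6, DESeq2 called 1 there, Ccnd1.

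Of 11 listed HMG chromatin genes, Hmga1 included, 6 were tested. Hmgn1, a nucleosome-binding protein, fell in every comparison, by 0.59 in yolk sac relative to E12.5 brain, by 0.75 at E18 relative to E12.5 brain, by 0.80 in adult relative to E18 brain and by 1.56 in adult relative to E12.5 brain (log2 scale; edgeR adjusted p at most 0.0387). Hmgb2, a DNA-bending protein of dividing cells, averaged 201 ± 38.2 CPM in E18 brain and 235 ± 40.5 CPM in E12.5 brain (edgeR adjusted p = 0.467), and fell to 37.0 ± 24.98 CPM in adult brain (n = 4), against 201 ± 38.2 CPM in E18 brain (n = 6; log2 fold change -2.42, edgeR adjusted p = 9.15e-07).

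Of 14 listed partners of IGF2BPs in RNA granules, 10 were tested, with 0 called by edgeR or DESeq2, and 0 at an unadjusted p under 0.05, in yolk sac relative to E12.5 brain. In E18 relative to E12.5 brain edgeR called 1 of the 10, lower, where 13.4% of all rows were called lower. In adult brain 3 of the 10 were called lower relative to E18 brain, where 11.2% of all rows were. Relative to E12.5 brain 3 were also lower in the adult, where 20.7% of all rows were. Ybx1, a cold shock domain protein that binds mRNA, averaged 679 ± 24.9 CPM in E18 brain and 1084 ± 38.9 CPM in E12.5 brain (log2 fold change -0.68, edgeR adjusted p = 0.000109) and 253 ± 46.7 CPM in adult brain (-1.39 relative to E18 brain, edgeR adjusted p = 1.5e-08). Pabpc1, which shares its row with Pabpc2 and binds poly(A) tails, also fell in adult relative to E18 brain (-1.49, edgeR adjusted p = 0.0185). So did Cbx5, a heterochromatin protein whose place among RNA granule partners was not checked here (-2.56, edgeR adjusted p = 0.00087). Hnrnpu, in a row with BC033430 and AK049600, averaged 366 ± 56.8 CPM in adult brain and 469 ± 81.8 CPM in E18 brain and did not pass (edgeR adjusted p = 0.288).

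IGF2BPs are known to read m6A, a methyl mark on mRNA. Of 12 listed genes that write, erase or read it, 9 were tested, and neither edgeR nor DESeq2 called any in yolk sac relative to E12.5 brain (1 at an unadjusted p under 0.05), in E18 relative to E12.5 brain (0) or in adult relative to E18 brain (0). In adult relative to E12.5 brain 4 rose and 0 fell, by edgeR and likewise 4 by DESeq2, where 17.8% of all rows were called higher by edgeR. Among them were the writer subunits Wtap (log2 fold change 1.51) and Mettl14 (1.49) and the reader Ythdf1 (1.34), and the median of the 9 was 1.19, beside -0.07 over all tested rows. The libraries overlapped for each of these named genes. Wtap ran from 20.8 to 67.1 CPM in adult brain, against 12.9 to 22.5 CPM in E12.5 brain. Mettl14 ran from 26.8 to 151 CPM, against 13.1 to 38.4 CPM, and Ythdf1 from 31.2 to 132 CPM, against 8.75 to 43.1 CPM. Of 21 listed imprinted genes 3 were tested. Besides H19, Gnas fell in all 4 comparisons, among them yolk sac relative to E12.5 brain (-0.93, edgeR adjusted p = 6.86e-07), and Sgce fell in yolk sac (-3.11, edgeR adjusted p = 0.00082) and rose in E18 relative to E12.5 brain (1.15, edgeR adjusted p = 0.0345) and in adult relative to E18 brain (1.22, edgeR adjusted p = 0.0211).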

How the data were processed

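In 18 MARS-seq libraries, the authors deposited whole-number UMI counts per gene row and well, not normalized, with a well annotation. Per the submitters' processing notes, bcl2fastq 2.15.0.4 and build mm9 were used; how reads were aligned, UMIs collapsed and genes annotated is not given in the sources used here. Wells with 1 sorted cell and at least 300 UMIs were kept (3012 of 3420) and their counts summed per library. Of 27297 rows, 2109 join names. CPM are counts per 1000000 of the library total.

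All 18 libraries entered 1 fit with edgeR 4.0.16 (limma 3.58.1, R 4.3.3): TMM factors, filterByExpr, robust quasi-likelihood F-test, Benjamini-Hochberg adjustment over 4883 rows, threshold 0.05. Members that the filter removed were tested in a fit of all 10356 rows with at least 10 UMIs. The fit was tested on simulated data. Floors are 3 counts per group, and a level set against a floor is taken as exact. Floors and exact (Clopper-Pearson) 95% intervals cover counting error only. Thinning to 300 UMIs used 1 random draw. Alternatives were RLE factors, DESeq2 1.42.0, other filters on rows and cells, fits of the compared groups alone, sums per plate, batch as a term, thinned libraries and each library left out. Named genes were, per list and comparison, up to 3 called genes with the largest change and the best detected gene that did not pass; some are not reported here. The members, lists and tests were chosen with earlier results of these data known. The alternatives of dropping cells rich in other cell types' markers and of a fit within 1 batch were added after the data were seen. The reference annotation (GRCm38) differs in build from mm9 and was used for sequences only. Protein sequences were not used here.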

Additional observations from a re-analysis of the deposited data

Results flagged for a closer look

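Of 25 groups of 4 to 6 libraries in which a gene had a UMI, 5 held 1 library far from the rest. For normally distributed values chance flags about 1 in 20 groups; its rate for low counts with many zeros was not tested. For Igf2bp2, E12.5 brain replicate 2 had 9.36 CPM, against 20.2 to 21.9 CPM in the other 3. Replicates 2, 3 and 4 each had 5 UMIs of it, in library totals of 534219, 233389 and 228467 UMIs. For Igf2bp3, adult replicate 3 had 83.1 CPM, against at most 10.1 CPM in the others. For Lin28b, E12.5 brain replicate 4 had 0 CPM, against at least 17.1 CPM. For Hmga2, yolk sac replicate 2 had 7.26 CPM from 2 UMIs, against 0. For H19, adult replicate 1 had 30.2 CPM from 3 UMIs, against 0. Except for Igf2bp2 in E12.5 brain, with 5 UMIs in that library, and Igf2bp3 in the adult, with 8, these rest on 3 UMIs or fewer.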

How the results depend on the processing

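Over 729 tests of single genes under alternatives, 682 stayed on the same side of the threshold, 40 lost and 7 gained a call, and no called direction turned. Counts of called rows fell with sums per plate to 493 between yolk sac and E12.5 brain (774 in the main test), 660 between E18 and E12.5 brain (1195) and 698 between adult and E18 brain (1050). With batch as a term they were 332 between E18 and E12.5 brain and 910 between adult and E12.5 brain (1883), and with all libraries thinned to 74562 UMIs 388, 615 and 1034 for yolk sac against E12.5 brain, E18 against E12.5 brain and adult against E12.5 brain. The cause was not tested. With each library left out in turn they ran from 625 to 809, from 930 to 1233, from 876 to 1085 and from 1710 to 1913 for yolk sac against E12.5 brain, E18 against E12.5 brain, adult against E18 brain and adult against E12.5 brain. No scaling moved the median of all rows by over 0.1. Genes that lost their counts to a filter gave no value, and DESeq2 gave no adjusted p for Lin28b in the E18 and adult comparisons. Of 32 shares of cells, 12 moved beyond the SD between libraries at 500 UMIs and 22 without thinning. No paired analysis was possible because the labels give no replicate numbers; numbers follow deposit order. Depth limits Lin28b, Igf2bp2, Hmga2 and all adult values.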
